A study of Mus musculus with 2 samples.

Results

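The transcripts described here are those of 4 ligands of the epidermal growth factor (EGF) family, Hbegf, Areg, Ereg and Nrg1, and of 3 ErbB receptors, Egfr, Erbb2 and Erbb3. These 7 genes were taken by symbol from 22480 genes, and all 7 were found in both tables. Their transcripts were counted in dissociated spinal cord cells of mice killed 3 days post injury (3 dpi) and of sham mice. Mice of both groups were C57BL/6, aged 8 weeks, and each group was 1 droplet library that pooled 5 males and 5 females. Tissue was a cord segment of 8 mm around the injury site, and the labels do not say how the cord was injured. Neither group had a replicate library, so no test was made, and library and injury cannot be told apart.

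Ligands of this family are made as proteins anchored in the cell membrane, and proteases of the ADAM group release the active part, which acts on the same or on nearby cells. Heparin-binding EGF (Hbegf), amphiregulin (Areg) and epiregulin (Ereg) bind the EGF receptor (Egfr), whereas neuregulin-1 (Nrg1) binds the receptors ErbB3 and ErbB4. ErbB2 has no known ligand of its own and pairs with the other receptors, and ErbB3 has little kinase activity and signals through its partner. In the nervous system the neuregulin branch is known for its part in the development of myelin-forming cells, and the EGF receptor branch for its part in the reaction of glia and connective tissue to damage.

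At 3 dpi 13594 barcodes carried 149291783 unique molecular identifiers (UMIs, each the tag of 1 captured transcript), at a median depth of 9117. In sham 10138 barcodes carried 76889038 UMIs, at a median depth of 5522. After filters and removal of called doublets, 12108 cells at 3 dpi and 9306 sham cells were kept. The libraries shared 39 barcodes. Cells were clustered anew and named as X-like from marker genes, and 5 of 30 clusters stayed unnamed. Clusters fell largely by library. Only 5 named classes had at least 50 cells in both libraries, and in 4 of them different clusters held most of the cells of either library; border-associated macrophage-like cells were cluster 21 in both. A level is given as UMIs of a gene per 1000000 UMIs of the class and library (CPM). Brackets give 95% intervals, which cover counting error only and leave out the spread between cells, mice and libraries.

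Promoter sequence was at hand for 3 of the 7 genes, from RefSeq on the mouse build GRCm38.p6. Areg is shown because it was near 0 in the sham library and high in few cells at 3 dpi, and Egfr because most of its transcripts lay in 1 class. Each line gives the 250 bases before the transcription start, 5′ to 3′ on the plus strand, with a cAMP response element (TGACGTCA) and a TATA sequence (TATAAA) in capitals.
Areg promoter, chr5:91139349-91139598: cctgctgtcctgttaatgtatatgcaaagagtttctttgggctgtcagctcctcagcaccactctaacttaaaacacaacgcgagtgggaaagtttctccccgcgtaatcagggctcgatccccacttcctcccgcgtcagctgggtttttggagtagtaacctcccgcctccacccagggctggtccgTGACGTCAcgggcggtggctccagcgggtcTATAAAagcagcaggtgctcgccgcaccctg
Egfr promoter, chr11:16751953-16752202: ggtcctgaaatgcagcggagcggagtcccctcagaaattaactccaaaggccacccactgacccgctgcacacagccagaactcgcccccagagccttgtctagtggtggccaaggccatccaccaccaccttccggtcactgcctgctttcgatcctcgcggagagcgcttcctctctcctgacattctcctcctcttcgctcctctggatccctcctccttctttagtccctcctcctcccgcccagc
The cAMP response element, a palindrome bound by the CREB family, began 61 bases before the Areg start, and the TATA sequence 31 bases before it. The first was present in 1.55% and the second in 12.4% of all 32851 promoter windows of this length, searched on both strands. Neither was found in the Egfr or the Erbb2 window. The AP-1 sequence (TGACTCA or TGAGTCA), present in 4.46% of windows, was found in none of the 3. These are matches of letters only. Areg and Ereg are neighbours on mouse chromosome 5.

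**Figure D1:**
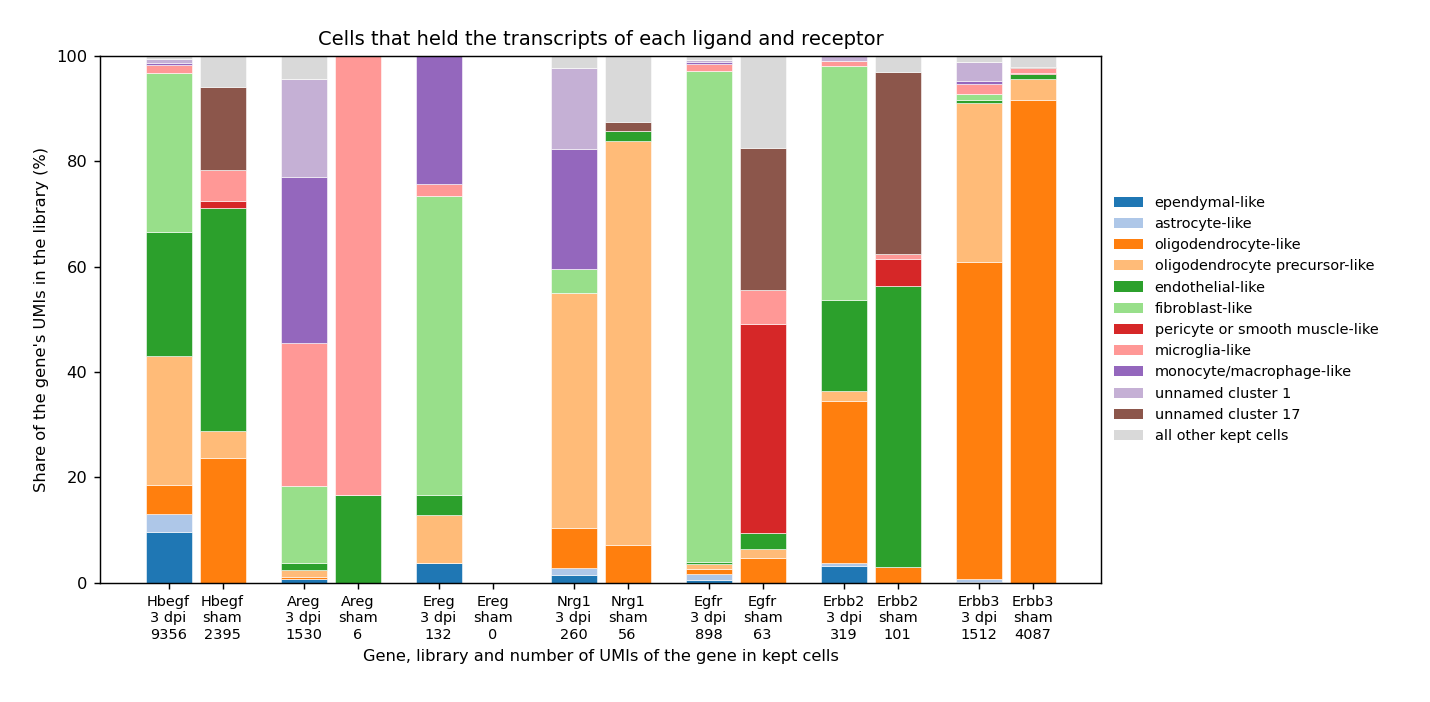
Share of each gene's UMIs (percent, bars from 0 to 100) held by each cell class, for the 3 dpi library (left bar of each pair) and the sham library (right bar), with the number of UMIs of the gene in kept cells under each bar. Fibroblast-like cells held 93.3% of Egfr at 3 dpi and oligodendrocyte-like cells held 91.8% of Erbb3 in sham. Ereg had 0 UMIs in sham.

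Taken over all kept cells, transcripts of 6 of the 7 genes were more frequent in the 3 dpi library, and Erbb3 was less frequent. Hbegf was at 75.6 CPM [74.1 to 77.1] at 3 dpi and 35.5 CPM [34.1 to 36.9] in sham. Areg was at 12.4 CPM (1530 UMIs) at 3 dpi and 0.0889 CPM (6 UMIs) in sham. Ereg had 132 UMIs in 60 of 12108 cells at 3 dpi and was not detected in 9306 sham cells, which allows a share of up to 0.0322% of sham cells with a UMI. These values join the level within cells with the makeup of each library.
Nrg1 was at 2.10 CPM at 3 dpi and 0.830 CPM in sham. Egfr was at 7.26 CPM at 3 dpi and 0.933 CPM in sham, and Erbb2 at 2.58 CPM at 3 dpi and 1.496 CPM in sham. Erbb3 was at 12.2 CPM [11.6 to 12.8] at 3 dpi and 60.5 CPM [58.7 to 62.4] in sham. Oligodendrocyte-like cells, where most Erbb3 lay, numbered 1794 of the kept cells at 3 dpi and 4392 in sham.

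**Figure D2:**
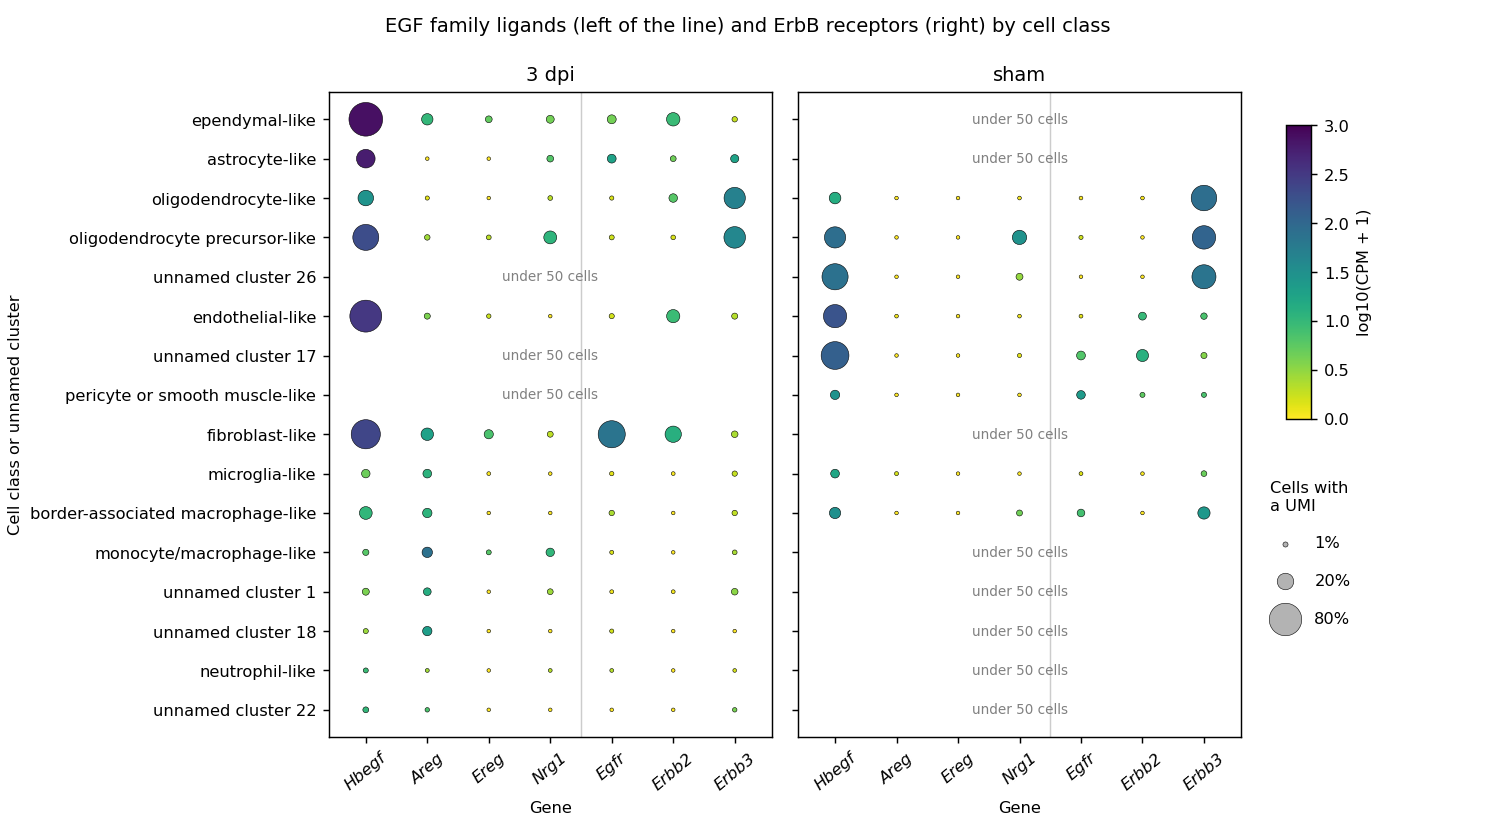
Dot plot of the 7 genes (horizontal axis) in each cell class or unnamed cluster (vertical axis), 3 dpi on the left and sham on the right. Colour gives log10(CPM + 1) and dot area the percentage of cells with a UMI, and classes of under 50 cells are marked as such. Hbegf had its highest levels in ependymal-like and astrocyte-like cells at 3 dpi, Egfr stood out in fibroblast-like cells, and Erbb3 in the oligodendrocyte lineage of both libraries.

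In the 3 dpi library Hbegf, a ligand of Egfr and ErbB4, was held mainly by neural, vascular and connective tissue cells and little by microglia or leukocytes. At 3 dpi its level was highest in ependymal-like cells, the ciliated lining of the central canal, at 749 CPM [701 to 799.6], with a UMI in 67 of 78 cells (85.9%). All 7 ependymal markers were seen in 10% or more of these cells, with a summed level of 505 CPM, beside 1494 CPM for astrocyte, 1660 CPM for pericyte or smooth muscle, 1204 CPM for oligodendrocyte and 525 CPM for neuron markers. The part of these other markers' cells in the value was not tested. Astrocyte-like cells followed at 571 CPM [510 to 636], endothelial-like cells at 326 CPM [313 to 339.9], fibroblast-like cells at 234 CPM [225 to 242] and oligodendrocyte precursor-like cells at 199.9 CPM [192 to 208]. Each of these neighbours in the order differed beyond counting error, with ratios between 1.17 and 1.75. A wide gap separated them from oligodendrocyte-like cells at 28.0 CPM, 7.15-fold [6.49 to 7.87] below the precursors. Among leukocytes and microglia at 3 dpi, levels were between 1.82 CPM in unnamed cluster 18, led by Cd74 and H2-Aa, and 9.63 CPM in border-associated macrophage-like cells. Neighbours in that lower range did not differ beyond counting error.
The astrocyte-like value rested on few cells. It came from 1 cluster of 121 cells with a median of 1192 UMIs, in which 31 cells (25.6%) had an Hbegf UMI and 5 cells held 50% of them. As a mean of per-cell levels it was 271 CPM. All 9 astrocyte markers were seen in 10% or more of these cells, with a summed level of 5267 CPM, beside 2325 CPM for oligodendrocyte markers and 2138 CPM for pericyte or smooth muscle markers, whose part in the value was not tested.

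In the sham library the order was led by endothelial-like cells at 163 CPM [153 to 174], with a UMI in 40.2% of 1399 cells. Unnamed cluster 17, led by the pericyte genes Vtn and Rgs5 together with the endothelial gene Cldn5, had 122 CPM [110 to 135]. Oligodendrocyte precursor-like cells had 83.9 CPM [69.9 to 100], which did not differ beyond counting error from the 75.2 CPM of unnamed cluster 26, led by the differentiation marker Gpr17. Border-associated macrophage-like cells, pericyte or smooth muscle-like cells, microglia-like cells and oligodendrocyte-like cells lay between 30.9 and 12.8 CPM. The ependymal-like cluster held only 28 sham cells, with 132 CPM [98.8 to 173] and a UMI in 39.3% of cells, so it was not compared with the 78 cells at 3 dpi.
Fibroblast-like cells held 30.3% of all Hbegf UMIs at 3 dpi, oligodendrocyte precursor-like cells 24.4%, endothelial-like cells 23.6% and ependymal-like cells 9.56%. In sham, endothelial-like cells held 42.2% and oligodendrocyte-like cells, which were numerous, 23.7%. As a background for shares of cells, 0.947% of neutrophil-like cells at 3 dpi had an Hbegf UMI at a median depth of 1040 UMIs. Cells of at least 1000 UMIs were also thinned to 1000, and cells below that depth (831 at 3 dpi and 166 in sham) were left out. The share was then 28.8% in endothelial-like cells and 0.983% in neutrophil-like cells at 3 dpi. The thinned share of sham endothelial-like cells was 14.6%.

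**Figure D3:**
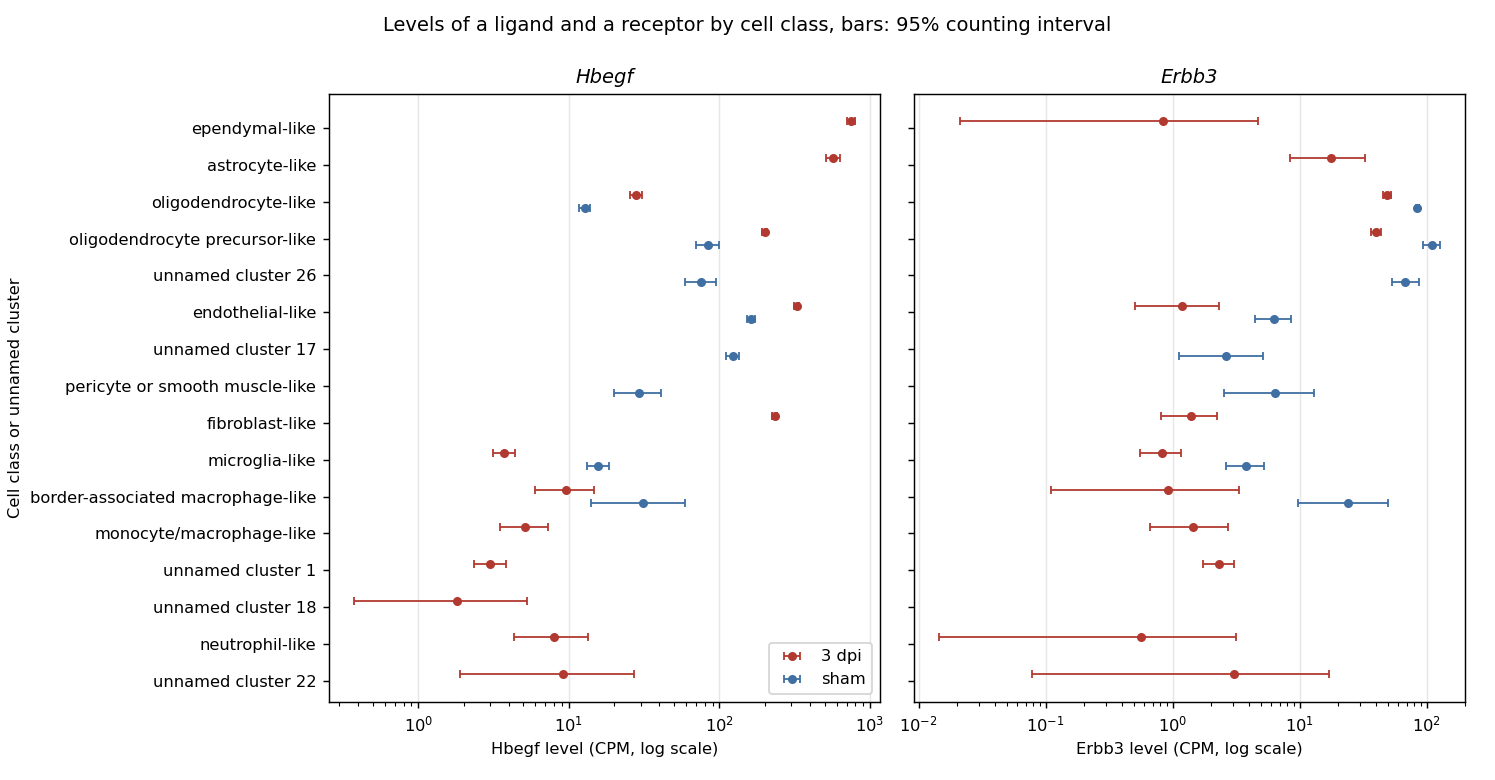
Level of Hbegf (left panel) and Erbb3 (right panel) in CPM on a log scale for each class, with the 3 dpi point above the sham point and bars for the 95% counting interval. Classes at 0 UMIs have no point. The Hbegf points lie to the right at 3 dpi in endothelial-like, precursor-like and oligodendrocyte-like cells, while the Erbb3 points of the oligodendrocyte lineage lie to the left.

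Within the classes held by both libraries, Hbegf was higher at 3 dpi in neural and vascular cells and lower in macrophage-type cells. A gene was called higher or lower, as a rule of size and not a test, when it reached 20 CPM in a library and its ratio was 2-fold or more with 10 CPM added to both libraries. In oligodendrocyte precursor-like cells (mostly cluster 10 at 3 dpi and cluster 19 in sham) Hbegf was at 199.9 CPM (2284 UMIs) at 3 dpi and 83.9 CPM (125 UMIs) in sham, 2.38-fold higher [1.99 to 2.87]. It was called higher, as were 7.31% of the 8203 genes measured in this class, while 13.7% were called lower. As a mean of per-cell CPM its log2 ratio was 0.85, short of the call, against 1.16. In endothelial-like cells (mostly cluster 16 at 3 dpi and cluster 4 in sham) it was at 326 CPM at 3 dpi and 163 CPM in sham, 1.997-fold higher [1.85 to 2.15]. This fell just short of the call, with a log2 ratio of 0.96 after the added 10 CPM, and it was called with median-of-ratios scaling (1.17), with called doublets kept (1.12) and as a mean of per-cell CPM (1.33). Over the genes measured, that scaling moved the log2 ratio by a median of 0.18 in endothelial-like and 0.16 in precursor-like cells. In this class 8.27% of genes were called higher and 14.7% lower.
In oligodendrocyte-like cells Hbegf was at 28.0 CPM (522 UMIs) at 3 dpi and 12.8 CPM (567 UMIs) in sham, 2.19-fold [1.94 to 2.47] higher and below the call at a log2 ratio of 0.74. It was called as a mean of per-cell CPM (1.02) and with 1 CPM added (1.07). Here 5.65% of genes were called higher and 4.27% lower. In microglia-like cells (mostly clusters 2 and 12 at 3 dpi and clusters 8 and 9 in sham) it was under the 20 CPM floor, at 3.72 CPM at 3 dpi and 15.6 CPM in sham, 4.203-fold lower [3.31 to 5.34]. None of the 7 genes reached the floor in this class, in which 11.6% of genes were called higher and 16.7% lower. In border-associated macrophage-like cells it was called lower, at 9.63 CPM at 3 dpi and 30.9 CPM in sham, but on 21 and 9 UMIs in 156 and 57 cells, and 5 of the 9 sham UMIs were in 1 cell. In this class 9.2% of genes were called higher and 18.3% lower.

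Cells derived from either sex were told apart by Xist and Y-linked UMIs. Endothelial-like Hbegf was 332 CPM in female-derived and 324 CPM in male-derived cells at 3 dpi, against 175 and 176 CPM in sham. In precursor-like cells it was 233 CPM in female-derived and 196 CPM in male-derived cells at 3 dpi, against 92.7 and 67.4 CPM in sham. The ratio of 3 dpi over sham was thus above 1 in cells of both sexes in both classes. The 3 dpi levels of precursor-like cells and of some other classes differed between the sexes beyond counting error, in no common direction. Hbegf was 689 CPM in female-derived and 953 CPM in male-derived ependymal-like cells, 283 and 229 CPM in fibroblast-like cells, and 23.9 and 34.2 CPM in oligodendrocyte-like cells. The intervals of the sexes overlapped in endothelial-like cells, in microglia-like cells (3.65 and 3.36 CPM) and in monocyte/macrophage-like cells (5.51 and 4.84 CPM).

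Hbegf is itself inducible within minutes in many cell types, so its level was set beside 17 immediate early genes, which tissue dissociation can raise. Between libraries their difference was opposite to that of Hbegf in precursor-like and endothelial-like cells and of the same direction in both macrophage-type classes. In precursor-like cells 12 of 16 measured early genes were called lower at 3 dpi, with a median log2 ratio of -1.97 against -0.27 for all genes measured. In endothelial-like cells 12 of 17 were called lower and Ier3 higher, with a median of -1.48 against -0.27. Microglia-like cells had 15 of 16 called lower and border-associated macrophage-like cells 16 of 16. Oligodendrocyte-like cells had 2 of 17 called higher, Atf3 and Ier3, and none lower. Over all genes, 13.7% were called lower in precursor-like, 14.7% in endothelial-like, 16.7% in microglia-like and 18.3% in border-associated macrophage-like cells. In oligodendrocyte-like cells 5.65% of all genes were called higher and 4.27% lower, and the count of 2 cannot be told apart from that share.
The cells of each class and library were also split into 3 equal parts by their share of early gene UMIs. In endothelial-like cells the part with the highest share had 367 CPM of Hbegf and the part with the lowest 318 CPM at 3 dpi, against 209 and 114 CPM in sham. Every part of the 3 dpi cells lay above every part of the sham cells, the lowest being 311 CPM and the highest sham part 209 CPM. Early genes made up 4773 to 24341 CPM of these parts at 3 dpi and 11537 to 49969 CPM of those in sham. In precursor-like cells the part with the highest share had 229 CPM and the part with the lowest 149.7 CPM at 3 dpi, against 81.2 and 76.5 CPM in sham. The middle part had 233 CPM at 3 dpi and 94.9 CPM in sham. The part of dissociation in the Hbegf ratios was not tested.

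Areg, which is made by macrophages and lymphocytes as well as epithelia, was close to absent in sham and was carried by a small minority of cells at 3 dpi. Its level was highest in monocyte/macrophage-like cells, the blood-derived phagocytes of cluster 6, at 77.6 CPM [70.8 to 84.8]. Only 88 of 1207 of these cells (7.29%) had an Areg UMI, 13 cells held 50% of the 483 UMIs, and a single cell held up to 28. Unnamed cluster 18 was at 20.6 CPM and fibroblast-like cells at 18.7 CPM, and these did not differ beyond counting error. Unnamed cluster 1, led by Pf4 and Arg1, was at 12.5 CPM, microglia-like cells at 10.96 CPM and border-associated macrophage-like cells at 10.5 CPM, neighbours that did not differ beyond counting error.
The monocyte/macrophage-like value depended on the clustering. It was 13.8 CPM with finer clusters and 26.4 CPM with cluster 1 counted in, a setting added after the data were seen. Oligodendrocyte-like cells, as a background, had an Areg UMI in 0.334% of cells at a median depth of 8328.5 UMIs, against 4422 UMIs in the monocyte/macrophage-like cells. Monocyte/macrophage-like cells held 31.6% of the Areg UMIs at 3 dpi, microglia-like cells 27.0%, cluster 1 18.8% and fibroblast-like cells 14.8%.
The level in monocyte/macrophage-like cells was 97.2 CPM in female-derived and 65.1 CPM in male-derived cells.
Sham held only 9 cells of cluster 6 and 0 of cluster 1, so it could not show the Areg level of these cells. In sham, 5 of the 6 UMIs were in microglia-like cells. Microglia-like cells were thus at 10.96 CPM (413 UMIs) at 3 dpi and 0.542 CPM (5 UMIs) in sham, a ratio of 20.2 [8.59 to 62.6], on levels too low for the call. Within microglia at 3 dpi, 24 of 2625 cells held 50% of the UMIs. Across the 3 parts of these cells by early gene share, Areg was at 2.15 CPM in the lowest, 18.3 CPM in the middle and 13.9 CPM in the highest part. Early genes made up 2455 to 10351 CPM of these parts at 3 dpi and 29336 to 64725 CPM of those in sham, and their part in the ratio was not tested.

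Ereg, which binds Egfr and ErbB4, was rare. Fibroblast-like cells held 75 of its 132 UMIs at 3 dpi (6.19 CPM [4.87 to 7.76]) and monocyte/macrophage-like cells 32 (5.14 CPM [3.52 to 7.26]), levels that did not differ beyond counting error. Oligodendrocyte precursor-like cells held 12, and ependymal-like and endothelial-like cells 5 each. Its fibroblast-like UMIs were spread over 35 cells, 15 of which also had Areg, so 42.9% of Ereg-bearing cells had an Areg UMI beside 10.95% of all 639 fibroblast-like cells. In monocyte/macrophage-like cells 9 of 11 Ereg-bearing cells had an Areg UMI. The Areg-bearing fibroblast-like cells were deeper, with a median of 27747 UMIs beside 16285 in all, and the part of depth was not tested.

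Nrg1, the ligand of ErbB3 and ErbB4, had its highest level in oligodendrocyte precursor-like cells in both libraries. It was at 10.2 CPM [8.39 to 12.2] at 3 dpi (116 UMIs) and 28.9 CPM [20.9 to 38.9] in sham (43 UMIs), 2.84-fold lower [1.956 to 4.07]. This was not called, at a log2 ratio of -0.95 with 10 CPM added. These cells held 44.6% of Nrg1 UMIs at 3 dpi and 76.8% in sham.
At 3 dpi a second source was seen, in cells that the sham library nearly lacked. Cluster 6 held 9 sham cells and cluster 1 held 0, so sham could not show this source. Monocyte/macrophage-like cells were at 9.48 CPM [7.22 to 12.2], with 59 UMIs in 54 cells and at most 2 in a cell, which did not differ beyond counting error from the precursor-like level. Unnamed cluster 1 added 40 UMIs (1.74 CPM). Areg and Nrg1 thus had unlike spreads in the same class, the first gathered in few cells and the second at 1 or 2 UMIs in each. Microglia-like cells had 0 Nrg1 UMIs in either library, which allows up to 0.114% of cells with a UMI at 3 dpi and 0.139% in sham, at median depths of 13788 and 3860.5 UMIs, and sets no limit on cells that express the gene.

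Most Egfr transcripts at 3 dpi lay in fibroblast-like cells. These cells, which express collagen genes, were at 69.2 CPM [64.6 to 74.0], with 838 of the library's 898 UMIs and a UMI in 353 of 639 cells (55.2%). Microglia-like cells, as a background, had a UMI in 0.457% of cells at a median depth of 13788 UMIs, beside 16285 in fibroblast-like cells. Astrocyte-like cells came next at 17.7 CPM [8.47 to 32.5], but on 10 UMIs in 6 cells. All 7 fibroblast markers were seen in 10% or more of the fibroblast-like cells, with a summed level of 17346 CPM.
The 2 fibroblast-like clusters differed. Cluster 15, led by Mgp and Col1a1, was at 87.1 CPM [81.1 to 93.5] with a UMI in 72.5% of 425 cells. Cluster 20, led by Dcn and Col1a2 and with Tagln, a contractile gene, among its leading genes, was at 20.3 CPM [15.7 to 25.8] in 21.0% of 214 cells. Median depths were 17818 and 12062 UMIs. All 4 ligands had the higher level in cluster 20. Hbegf was at 222 CPM in cluster 15 and 267 CPM in cluster 20, Areg at 16.5 and 24.6 CPM, Ereg at 4.52 and 10.7 CPM, and Nrg1, on 7 and 5 UMIs, at 0.790 and 1.54 CPM. The intervals of the clusters overlapped for Nrg1 and not for Hbegf, Areg or Ereg.
In sham, where fibroblast-like cells numbered 17, Egfr was highest in pericyte or smooth muscle-like cells at 22.7 CPM [14.7 to 33.5], on 25 UMIs. Border-associated macrophage-like cells, next in order, had 2 UMIs (6.87 CPM), which did not differ from it beyond counting error. Unnamed cluster 17 had 17 UMIs (5.55 CPM). Oligodendrocyte-like, precursor-like, endothelial-like and microglia-like cells had between 1 and 12 Egfr UMIs per class and library, and levels of 0.0677 to 0.70 CPM.
Of the 410 fibroblast-like cells with an Hbegf UMI, 254 also had Egfr (62.0%), beside 55.2% of all fibroblast-like cells. The Hbegf-bearing cells had a median of 19106 UMIs. Male-derived fibroblast-like cells had 69.4 CPM of Egfr and female-derived cells 70.6 CPM.

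Erbb2, the partner receptor, was low throughout. At 3 dpi it was at 11.7 CPM [9.87 to 13.8] in fibroblast-like cells, 8.38 CPM [4.02 to 15.4] in ependymal-like cells and 8.12 CPM [6.11 to 10.6] in endothelial-like cells, an order in which neighbours did not differ beyond counting error. In sham it was at 11.4 CPM in unnamed cluster 17 and 8.72 CPM [6.55 to 11.4] in endothelial-like cells. The endothelial-like ratio of 3 dpi over sham was 0.931 [0.628 to 1.38], and its direction turned in 3 of 11 other settings.
Oligodendrocyte-like cells set the libraries apart. Erbb2 had 98 UMIs in these cells at 3 dpi (5.25 CPM [4.26 to 6.40]) and 3 in sham (0.0677 CPM [0.0140 to 0.198]), a ratio of 77.6 [25.8 to 383]. Both levels are under 20 CPM, so it could not be called. The 98 UMIs were spread over 83 cells with at most 3 in a cell. Both 3 dpi clusters carried it, at 5.80 CPM in cluster 7 and 3.84 CPM in cluster 13, while the largest sham clusters, 11, 5 and 0, had 1, 2 and 0 UMIs. The level was 3.65 CPM in female-derived and 6.42 CPM in male-derived cells at 3 dpi. Of the 83 cells with Erbb2, 37 also had Erbb3 (44.6%), beside 33.8% of all 1794 cells. Their median depth was 18314 UMIs beside 8328.5 in all.

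Erbb3, a neuregulin receptor, was highest in the oligodendrocyte lineage of both libraries, and its level there was lower at 3 dpi. At 3 dpi oligodendrocyte-like cells were at 48.8 CPM [45.6 to 52.0] and precursor-like cells at 39.9 CPM [36.3 to 43.7], which differed beyond counting error. In sham the order was turned, with precursor-like cells at 109 CPM [93.3 to 128], oligodendrocyte-like cells at 84.6 CPM [81.9 to 87.3] and unnamed cluster 26 at 68.2 CPM [53.0 to 86.5]. The first pair differed beyond counting error and the second did not. In precursor-like cells Erbb3 was 2.74-fold lower at 3 dpi [2.28 to 3.29] and called lower, with a log2 ratio of -1.26. The ratio was just short of the call as a mean of per-cell CPM (-0.98) and with called doublets kept (-0.96). In oligodendrocyte-like cells it was 1.73-fold lower [1.61 to 1.87], which is under 2-fold and was not called. Markers of the lineage were lower too. Precursor markers summed to 2348 CPM at 3 dpi and 7827 CPM in sham in precursor-like cells. Oligodendrocyte markers summed to 33442.5 CPM at 3 dpi and 61860 CPM in sham in oligodendrocyte-like cells. The part of this difference in the Erbb3 ratios was not tested.
A UMI was found in 33.8% of oligodendrocyte-like cells at 3 dpi and 48.8% in sham, at median depths of 8328.5 and 7633.5 UMIs. With cells thinned to 1000 UMIs the shares were 5.93% and 8.62%. Microglia-like cells, as a background, had an Erbb3 UMI in 1.18% of cells at 3 dpi and 1.52% in sham. Erbb3 is also a Schwann cell gene, and the 5 Schwann markers in the tables summed to 4.82 CPM in oligodendrocyte-like cells at 3 dpi and 21.0 CPM in sham.
The sham border-associated macrophage-like cells showed 24.1 CPM of Erbb3 on 7 UMIs, against 0.917 CPM on 2 UMIs at 3 dpi, and the gene was called lower there. In the same sham cells the myelin genes Mag, Mog and Opalin stood at 22.7% to 24.4% of their level in oligodendrocyte-like cells, and Erbb3 at 28.4%. At 3 dpi the same 3 genes stood at 0.465% to 0.577%. Oligodendrocyte markers summed to 14609 CPM in the sham cells and 189.9 CPM in the 3 dpi cells. Sham microglia-like cells had Erbb3 at 4.49% of the oligodendrocyte-like level and the 3 myelin genes at 3.46% to 4.84%. Sham endothelial-like cells had 7.45% and 5.78% to 7.65%. At 3 dpi the microglia-like values were 1.69% and 0.495% to 0.771%, and the endothelial-like values 2.42% and 0.479% to 0.661%. The part of RNA from oligodendrocyte-like cells in these Erbb3 levels was not tested.

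**Figure D4:**
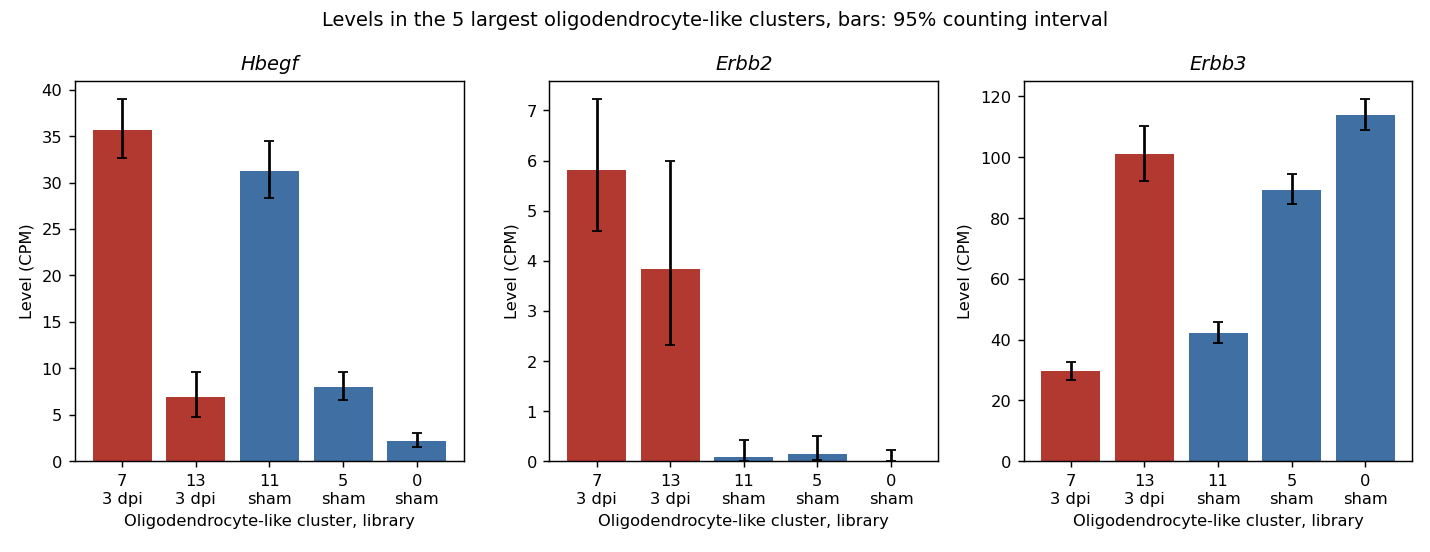
Level (CPM, bars from 0) of Hbegf, Erbb2 and Erbb3 in the 5 largest oligodendrocyte-like clusters, 2 of the 3 dpi library (red) and 3 of the sham library (blue), with 95% counting intervals. Clusters 7 and 11 have more Hbegf and less Erbb3 than the other clusters of their own library, and Erbb2 is seen almost only in the 3 dpi clusters.

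Within the oligodendrocyte-like class Hbegf and Erbb3, which are not a pair of ligand and receptor, ran against each other over clusters. At 3 dpi, cluster 7, led by Serpina3n and Klk6, had 35.7 CPM [32.6 to 39.0] of Hbegf and 29.5 CPM [26.7 to 32.6] of Erbb3. Cluster 13, led by Serpina3n, Klk6 and Cldn11, had 6.87 CPM [4.76 to 9.61] of Hbegf and 101 CPM [92.2 to 110] of Erbb3. The same contrast was present in sham. Cluster 11, led by Klk6 and S100b, had 31.3 CPM [28.3 to 34.5] of Hbegf and 42.3 CPM [38.8 to 46.0] of Erbb3. Cluster 0, led by Ptgds and Opalin, had 2.24 CPM [1.58 to 3.08] of Hbegf and 114 CPM [109 to 119] of Erbb3, and cluster 5, led by Klk6 and Ermn, had 7.99 and 89.3 CPM. The Hbegf-rich clusters were also the deeper in each library, with medians of 10265 UMIs in cluster 7 against 6599.5 in cluster 13, and 15211 UMIs in cluster 11 against 9079 in cluster 5 and 5885.5 in cluster 0. The part of depth was not tested. The class ratios between libraries therefore join differences within clusters with the mix of clusters.

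**Figure D5:**
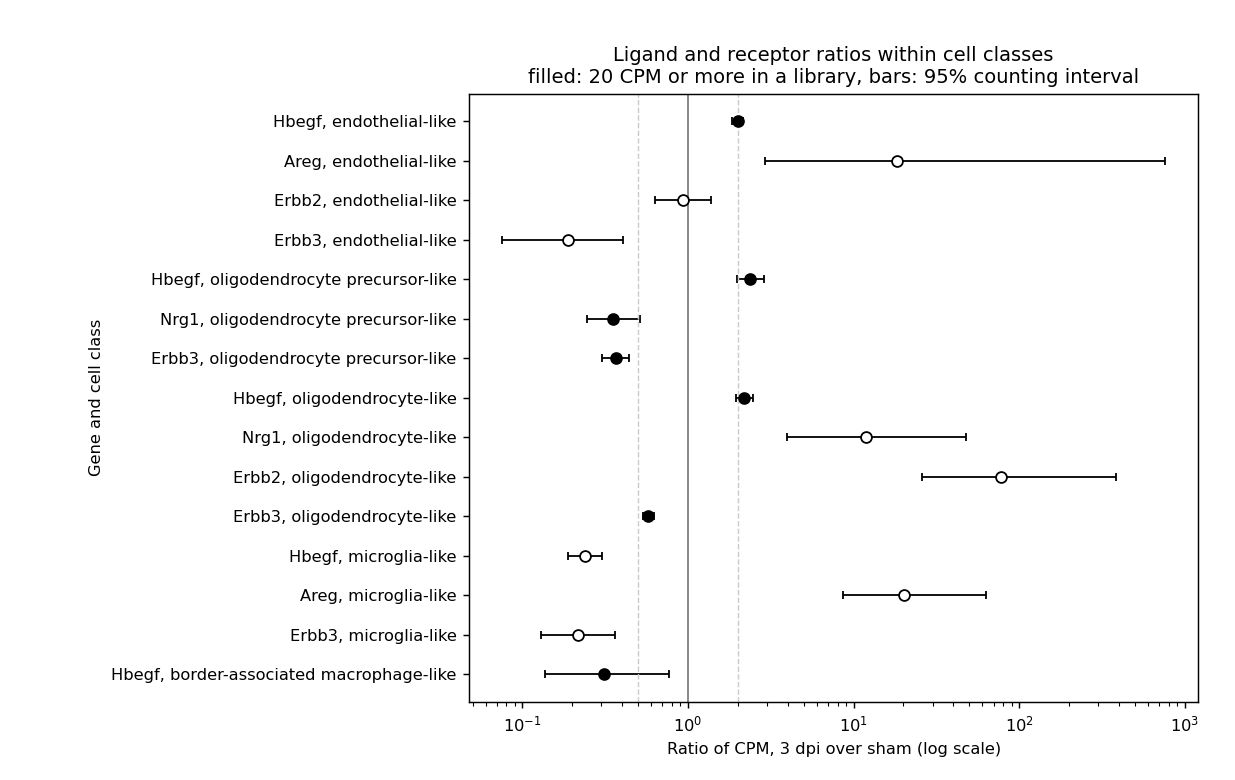
Ratio of CPM, 3 dpi over sham (log scale), for each gene and class with 20 or more UMIs in all and at least 1 in each library, with 95% counting intervals. Filled points reached 20 CPM in a library, dashed lines mark 2-fold. Hbegf lies between 1.997-fold and 2.38-fold in 3 classes and below 1 in 2, and Erbb3 lies below 1 in each class shown. In microglia-like and endothelial-like cells Erbb3 was under 20 CPM in both libraries.

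Among the other EGF family genes, Btc and Erbb4 were called in the oligodendrocyte lineage. Betacellulin (Btc), a ligand of Egfr and ErbB4, was 3.65-fold higher [3.28 to 4.06] in oligodendrocyte-like cells, at 47.6 CPM at 3 dpi and 13.1 CPM in sham, and was called higher. It was the only called gene among the 3 of this list measured in that class, in which 5.65% of all genes were called higher. These cells held 92.3% of all Btc UMIs at 3 dpi and 95.4% in sham. Tgfa, the ligand transforming growth factor alpha, was at 242 CPM in oligodendrocyte-like cells at 3 dpi and 143 CPM in sham, below the call.
Erbb4, the other neuregulin receptor, was 5.68-fold lower [4.20 to 7.66] in precursor-like cells, at 9.45 CPM at 3 dpi and 53.7 CPM in sham. Of the 2 genes of this list measured in these cells it was the 1 called, and 13.7% of all genes were called lower there. Counts among so few genes cannot be set apart from such shares. In oligodendrocyte-like cells Erbb4 was at 5.25 CPM at 3 dpi and 20.05 CPM in sham. In precursor-like cells Erbb3, Erbb4 and Nrg1 thus all had lower levels at 3 dpi while Hbegf was higher. The 8 precursor markers together were also lower in these cells, at 2348 CPM at 3 dpi and 7827 CPM in sham. The part of this difference in the receptor and Nrg1 ratios was not tested. In microglia-like cells Tgfa was called lower, 3.49-fold [3.05 to 3.99], at 12.7 CPM at 3 dpi and 44.2 CPM in sham. It was likewise called lower in border-associated macrophage-like cells on 7 and 15 UMIs. Over all genes 16.7% were called lower in microglia-like and 18.3% in border-associated macrophage-like cells. The sham border-associated macrophage-like cells held myelin genes at 22.7% to 24.4% of their oligodendrocyte-like level. The part of RNA from oligodendrocyte-like cells in this Tgfa call was not tested. Epgn, epigen, had 4 UMIs at 3 dpi and 0 in sham.

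Of the proteases and partners that release the ligands, 0 of 8 measured were called in precursor-like cells, 0 of 6 in oligodendrocyte-like cells and 0 of 5 in microglia-like cells. Over all genes, 7.31% were called higher and 13.7% lower in precursor-like cells. The shares were 5.65% and 4.27% in oligodendrocyte-like cells and 11.6% and 16.7% in microglia-like cells. A count of 0 among so few genes cannot be told apart from these shares. In endothelial-like cells 2 of 8 were called lower, where 14.7% of all measured genes were. Timp3, an inhibitor of ADAM17, was at 222 CPM at 3 dpi and 836 CPM in sham, 3.77-fold lower [3.56 to 3.996], and Bace1, a protease that cuts neuregulin-1, was 3.08-fold lower [2.36 to 4.06]. In border-associated macrophage-like cells Cd9, a tetraspanin that binds the Hbegf precursor, was called higher and Bace1 lower, of 6 measured. Of all genes in that class 9.2% were called higher and 18.3% lower.
Among adaptors and effectors, Gab1, a docking protein of ErbB signalling, was called lower in all 5 classes. Its levels were 39.5 CPM at 3 dpi and 126 CPM in sham in precursor-like cells, 110 and 258 CPM in oligodendrocyte-like cells, and 21.8 and 86.9 CPM in endothelial-like cells. The sham border-associated macrophage-like cells held myelin genes, and the part of RNA from oligodendrocyte-like cells in their Gab1 call was not tested. Hras was called higher in microglia-like cells, at 118 CPM at 3 dpi and 42.5 CPM in sham. Stat3 was called higher in oligodendrocyte-like cells, 2.65-fold [2.52 to 2.78]. In these lists 1 of 12 measured genes was called in precursor-like cells, 2 of 12 in microglia-like, 2 of 11 in oligodendrocyte-like, 2 of 13 in endothelial-like and 3 of 12 in border-associated macrophage-like cells. Over all genes, 13.7% were called lower in precursor-like and 14.7% in endothelial-like cells, so these 2 counts are near the background. In border-associated macrophage-like cells all 3 were lower, beside 18.3% of all genes. Microglia-like and oligodendrocyte-like cells each had 1 called higher and 1 lower. Over all genes 11.6% were called higher and 16.7% lower in microglia-like cells, and 5.65% and 4.27% in oligodendrocyte-like cells.

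Negative regulators of ErbB and ERK signalling were called lower more often than higher in 4 classes. In these classes lower calls also outnumbered higher calls over all genes. The list joins feedback inhibitors of the Spry, Spred and Dusp families with other regulators such as Cbl and Socs4. Its counts and medians are therefore no measure of pathway activity. In precursor-like cells 4 of 10 measured were called lower, beside 13.7% of all genes, and 0 higher, with a list median log2 ratio of -0.78 against -0.27 for all genes measured. Spry1 was at 111 CPM at 3 dpi and 363 CPM in sham, 3.27-fold lower [2.96 to 3.62]. Spry4 was 5.86-fold lower [4.79 to 7.17], Dusp6, a phosphatase of ERK, 2.86-fold lower [2.40 to 3.40] and Spred1 2.21-fold lower [1.92 to 2.55]. The ligand Hbegf and these inhibitors thus differed in opposite directions in this class.
In endothelial-like cells 3 of 10 were called lower, beside 14.7% of all genes, and 2 higher, with a list median of -0.55 against -0.27. Errfi1, which binds and blocks EGFR family kinases, was at 73.9 CPM at 3 dpi and 29.1 CPM in sham, 2.54-fold higher [2.14 to 3.03], and Dusp5 was 6.09-fold higher [4.28 to 8.91]. Dusp6 was 4.003-fold lower [3.62 to 4.43], Spry1 5.07-fold lower [4.30 to 6.00] and Spred2 2.87-fold lower [2.33 to 3.56]. Microglia-like cells had 3 of 7 called lower, beside 16.7% of all genes, with a list median of -0.83 against -0.16. These were Errfi1, Dusp6 and Spry1, with Dusp6 at 32.2 CPM at 3 dpi and 269 CPM in sham. Border-associated macrophage-like cells had the same 3 of 6 called lower, beside 18.3% of all genes, and Dusp5 called higher, with a list median of -0.97 against -0.15. Oligodendrocyte-like cells had 0 of 8 called in either direction. In the 4 classes in which genes of this list were called lower, most of the immediate early genes measured were called lower too, and the part of dissociation was not tested.

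The genes with levels most like each ligand or receptor were found by the correlation of log2(CPM + 10) over 21 pairs of class and library, among 11693 genes. They share library and depth with the gene they follow, and the correlations are a description. For Hbegf these were Myh10 (r = 0.92), Hspb8 (0.90) and Ildr2 (0.90). For Egfr they were Fam26e (0.94), Pcolce (0.93), which enhances collagen processing, and Spon2 (0.93), and for Erbb3 Lrp1b (0.98), Pcsk6 (0.97) and Sox10 (0.97), a transcription factor of the oligodendrocyte lineage. Those of Areg were Ripk3 (0.84), Rnh1 (0.82) and Zbp1 (0.82), and those of Nrg1 Diras2 (0.90), Slitrk1 (0.89) and Cited1 (0.89). Ereg and Erbb2 reached 20 CPM in no class and were left out.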

How the data were processed

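Per the labels' protocols, cord segments were digested and loaded on the 10X Chromium platform with its 3′ chemistry, and sequencing was paired, with reads of 150 bases. The deposited tables hold raw UMI counts per gene and barcode. The submitters' processing notes name Cell Ranger, Seurat and GRCh38, a human build, although the symbols are mouse symbols, so gene coordinates of the files were not used, and promoter coordinates are those of the RefSeq table. No table held mitochondrial genes (0 rows).

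Cells with at least 200 genes and 500 UMIs were kept (13584 at 3 dpi and 10126 in sham). The expected number of doublets (0.8% per 1000 cells), by highest share of simulated doublet neighbours, was removed: 1476 and 820. Cells of both libraries were clustered together, without integration, from 2000 variable genes that left out the 7 genes and the pathway lists (30 principal components, 15 neighbours, Leiden resolution 1.0). Clusters were named from markers of 17 classes; a name needed 3 markers 2-fold over the median cluster and seen in 10% of cells. It was withheld when another class came within 1 log2 of the best and had 50% of markers past that limit. This rule was set after the data were seen.

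Counts were summed per class and library, and CPM, shares and ratios computed with exact Poisson, Clopper-Pearson and exact conditional 95% intervals. UMI counts from the 3′ end are not scaled by gene length, so levels are compared between cells and not between genes. A limit for a share of 0 is 3 cells. The 7 genes, the 5 gene lists and the settings were chosen with earlier results of these data known. Besides the 7, a list gene is named when called by the size rule or among the highest of its list, and for each of the 7 that reached 20 CPM the 3 genes of highest correlation are named. With 1 library per group no test was possible. The size rule was also run on simulated counts that held no library or cluster difference. That run does not bear on the ratios reported here. Alternatives were coarser and finer clusters, a stricter filter, doublets kept, 5% free RNA subtracted, cells of either sex, per-cell means, median-of-ratios scaling, 1 CPM added, no floor, and thinning to 1000 UMIs. Software was matplotlib 3.10.9, leidenalg 0.10.2, igraph 0.11.9, scikit-learn 1.9.0, pandas 2.3.3, scipy 1.17.1 and numpy 2.4.6 under Python 3.11.15.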

Additional observations from a re-analysis of the deposited data

Results flagged for a closer look

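Hbegf differed in direction between classes. Its ratio of 3 dpi over sham was 2.19 in oligodendrocyte-like cells, 2.38 in oligodendrocyte precursor-like cells and 1.997 in endothelial-like cells, whereas it was 0.238 in microglia-like cells and 0.311 in border-associated macrophage-like cells. Nrg1 likewise had a ratio of 11.9 in oligodendrocyte-like cells, on 20 UMIs at 3 dpi and 4 in sham, and of 0.352 in precursor-like cells, on 116 and 43 UMIs. Each class had 1 library per group, so the difference between classes was not tested.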

How the results depend on the processing

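No paired analysis was possible because each group was 1 library, and leaving out a replicate could not be done for the same reason. Of 156 counts of calls under other settings 142 kept within 1.5 times the reported count. Single values moved more often beyond counting error: 48 log2 ratios of the 7 genes moved and 122 did not, and 35 CPM levels moved and 104 did not. With cells thinned to 1000 UMIs, 18 shares of cells moved and 1 did not. Thinning lowers shares among the thinned cells by construction, and cells under 1000 UMIs were left out. With called doublets kept, 1 of the 7 genes was called in precursor-like cells (2 reported) and 2 in endothelial-like cells (0 reported). With the mean of per-cell CPM, 0 were called in precursor-like and 0 in border-associated macrophage-like cells (2 reported in each), and 1 each in oligodendrocyte-like and endothelial-like cells (0 reported). Median-of-ratios scaling called 1 in endothelial-like cells, which was Hbegf. With 1 CPM added, 1 was called in oligodendrocyte-like cells and 6 pathway genes in place of 3. Per-cell means called 6 pathway genes in place of 10 in border-associated macrophage-like cells. Immediate early genes called in oligodendrocyte-like cells were 4 with 1 CPM added, 4 in female-derived cells and 5 with per-cell means, in place of 2, and in endothelial-like cells 8 with per-cell means in place of 13.

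Over all settings the log2 ratio of Hbegf was 0.85 to 1.41 in precursor-like, 0.84 to 1.33 in endothelial-like and 0.57 to 1.07 in oligodendrocyte-like cells. That of Erbb3 was -1.43 to -0.96 in precursor-like and -0.89 to -0.48 in oligodendrocyte-like cells, and that of Nrg1 in precursor-like cells -1.42 to -0.47. Areg in monocyte/macrophage-like cells ranged from 13.8 to 97.2 CPM. The cause of these shifts was not tested. Few UMIs limit all but Hbegf and Erbb3 in the sham library, where the other 5 genes had 0 to 101 UMIs.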
